A study of Mus musculus with 12 samples.

Results

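The genes of cholesterol synthesis, uptake and efflux were examined as a group of 31 genes, taken by gene symbol from a table of 39017 genes counted in 12 mouse lung tumors. Of the 31 genes, 30 were found by symbol, and *Msmo1* was found by its identifier, since the table lists it under the older symbol *Sc4mol*. They comprise 18 enzymes of the pathway from acetyl-CoA to cholesterol, 4 genes that control the transcription factor SREBP2, 4 genes of sterol transport and storage, and 5 genes of the liver X receptors (LXR) and of sterol efflux. All 31 passed the filter on low counts, and the lowest count of any of them in any tumor was 91.

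The tumors were in 4 groups of 3. All mice were on a C57BL/6 background with K-ras LSL-G12D/WT and p53 Fl/Fl alleles, on which Cre acts to start tumors in the lung, and with a CCSP-rtTA transgene, which makes the doxycycline-responsive activator under the club cell secretory protein promoter. KPG1 mice carried Glut1 Fl/Fl alleles in addition, so that Cre can delete part of the glucose transporter gene *Slc2a1*. According to the paper, its control mice were wild type for *Slc2a1* or heterozygous for the floxed allele. Which of these each KP mouse was is not known here. All mice of the 4 groups received 6000 viral units of Lenti.TRE-PPARaD13_PGK-Cre, a vector with Cre and with PPARαΔ13, a dominant negative form of the fatty acid receptor PPARα that is transcribed when doxycycline is given. The groups KP_PPARaDN and KPG1_PPARaDN ate food containing 625 mg/kg of doxycycline over 15 days, whereas KP and KPG1 ate regular food, so the drug and the transgene cannot be told apart. Tumors were taken at 26 weeks, and RNA came from the CD45- fraction. From the labels, the tumors appear to come from 9 mice: replicates 1 and 2 of KP shared a mouse, as did replicates 1 and 2 of KPG1 and replicates 1 and 3 of KPG1_PPARaDN. The mice of KP were female and those of KPG1 were male. In KP_PPARaDN replicate 2 came from a female and the others from males, and in KPG1_PPARaDN replicate 2 came from a male and the others from females.

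Cells make cholesterol from acetyl-CoA through mevalonate, squalene and lanosterol, or take it up from lipoproteins. When sterol in the endoplasmic reticulum is low, Scap escorts SREBP2 to the Golgi, where SREBP2 is cut and goes on to switch on nearly every gene of the pathway; when sterol is high, the Insig proteins hold Scap back. Excess sterol is esterified by Soat1 or turned into oxysterols, which activate LXR and so the exporters Abca1 and Abcg1. In the lung, cholesterol is a component of the surfactant that alveolar type 2 cells secrete, and lung adenocarcinomas of this model are thought to start largely from these cells.

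The 5′ flanks of the genes were searched for short motifs, since SREBP2 binds sterol regulatory elements together with the general factors NF-Y, which reads CCAAT, and Sp1, which reads the GC box GGGCGG. RefSeq promoters (build GRCm38.p6) were matched for 25 of the 31 genes, and the 250 bases before each start site were read on both strands. CCAAT was in the flanks of 20 of the 25 genes (80%), and in those of 37.5% of 27025 genes with a RefSeq promoter. GGGCGG was found for 21 of 25 (84%), and for 35.4% of all genes. The sterol regulatory element core TCACNCCAC was found for *Hmgcs1* alone (4% of the 25 genes, and 1.22% of all genes), 137 to 129 bases before the start site. The direct repeats of AGGTCA with 4 bases between them, read by LXR, and with 1 base between them, read by PPAR, were found for 0 of 25 genes each (0.0148% and 0.0407% of all genes). CCAAT on the opposite strand can share bases with GGGCGG, so these counts are not independent. They describe letters in a window and not binding. The shares of all genes are over every gene with a RefSeq promoter, whether or not it was expressed in these tumors. All 31 members were expressed, and a share among expressed genes alone was not counted. The flanks of 8 genes are shown, with bases inside annotated exons left out. They are a choice among the genes named in the results below, with *Hmgcs1* taken because it holds the sterol element. Flanks of other genes named below, such as *Cyp51*, are not shown. Capitals mark CCAAT on either strand and TCACNCCAC.
*Hmgcs1*, chr13:119690101-119690350, plus strand: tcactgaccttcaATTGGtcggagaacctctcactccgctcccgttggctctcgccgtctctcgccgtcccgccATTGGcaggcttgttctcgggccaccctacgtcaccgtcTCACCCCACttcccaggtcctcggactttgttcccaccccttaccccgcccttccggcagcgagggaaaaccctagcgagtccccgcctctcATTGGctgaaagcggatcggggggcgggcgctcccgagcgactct
*Ebp*, chrX:8193513-8193762, minus strand: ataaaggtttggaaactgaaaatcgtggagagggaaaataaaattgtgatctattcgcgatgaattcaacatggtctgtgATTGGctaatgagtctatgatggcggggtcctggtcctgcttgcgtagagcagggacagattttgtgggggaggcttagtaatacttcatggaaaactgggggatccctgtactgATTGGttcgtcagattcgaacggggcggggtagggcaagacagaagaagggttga
*Lss*, chr10:76531355-76531587, plus strand: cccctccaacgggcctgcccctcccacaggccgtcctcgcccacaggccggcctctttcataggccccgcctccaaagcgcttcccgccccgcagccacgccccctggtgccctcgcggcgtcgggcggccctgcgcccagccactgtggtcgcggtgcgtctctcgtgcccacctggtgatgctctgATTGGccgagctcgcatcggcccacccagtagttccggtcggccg
*Sc5d*, chr9:42264301-42264550, minus strand: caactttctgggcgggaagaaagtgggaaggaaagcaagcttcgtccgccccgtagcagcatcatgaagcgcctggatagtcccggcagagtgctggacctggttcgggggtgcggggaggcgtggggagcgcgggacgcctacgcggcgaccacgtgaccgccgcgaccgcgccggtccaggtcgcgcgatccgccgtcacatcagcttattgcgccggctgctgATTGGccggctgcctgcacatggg
*Insig1*, chr5:28071162-28071362, plus strand: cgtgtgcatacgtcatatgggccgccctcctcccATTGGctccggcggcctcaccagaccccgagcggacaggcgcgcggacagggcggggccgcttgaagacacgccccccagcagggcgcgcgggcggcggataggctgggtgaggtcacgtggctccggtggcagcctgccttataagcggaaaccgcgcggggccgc
*Soat1*, chr1:156474332-156474578, minus strand: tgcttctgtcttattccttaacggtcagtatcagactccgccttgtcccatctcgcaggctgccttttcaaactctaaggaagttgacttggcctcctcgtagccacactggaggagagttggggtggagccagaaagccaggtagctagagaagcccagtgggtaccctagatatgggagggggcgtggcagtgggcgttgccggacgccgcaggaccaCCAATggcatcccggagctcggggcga
*Scap*, chr9:110333038-110333287, plus strand: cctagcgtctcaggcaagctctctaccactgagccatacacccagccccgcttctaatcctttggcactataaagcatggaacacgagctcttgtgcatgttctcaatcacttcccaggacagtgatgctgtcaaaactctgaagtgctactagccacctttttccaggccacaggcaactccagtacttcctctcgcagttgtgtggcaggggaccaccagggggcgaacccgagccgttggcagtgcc
*Nr1h2*, chr7:44553966-44554215, minus strand: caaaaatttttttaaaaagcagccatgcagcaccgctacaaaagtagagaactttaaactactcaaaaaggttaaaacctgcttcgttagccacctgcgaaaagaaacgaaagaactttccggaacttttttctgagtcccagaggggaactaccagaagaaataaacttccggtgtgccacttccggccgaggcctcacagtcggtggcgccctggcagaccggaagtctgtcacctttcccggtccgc
*Hmgcs1* and *Ebp* each hold CCAAT more than once, *Lss*, *Sc5d*, *Insig1* and *Soat1* hold it once, and in *Scap* and *Nr1h2* these letters were not found. In *Soat1* it is on the strand of the gene, 30 to 26 bases before the start site, and in the 5 other genes with CCAAT shown here it is on the opposite strand, in *Lss* 62 to 58 and in *Sc5d* 24 to 20 bases before the start site.

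A total of 25263794 to 32654223 reads per tumor were counted on genes. Levels are given as CPM (counts scaled to a common total per tumor) with TMM scaling, which allows tumors to be compared. Where genes are compared with each other, TPM is given (counts per length of a gene's exons, scaled per tumor). This length joins all annotated exons of a gene (10787 bases for *Lss*). It can exceed that of the transcript present, which lowers the TPM of such a gene. p-values come from edgeR's quasi-likelihood test in one fit of the 12 tumors, adjusted by the Benjamini-Hochberg method over the 16527 genes tested. They measure the spread between tumors, and some tumors shared a mouse. *Ppara*, whose count can include reads of the transgene, was at 15.7, 10.5 and 9.54 CPM in KP replicates 1, 2 and 3 and at 2.71, 64.6 and 246 CPM in those of KP_PPARaDN. It was 7.24 to 15.3 CPM in KPG1 and 8.90 to 19.2 CPM in KPG1_PPARaDN, so the library labelled KP_PPARaDN replicate 1 and the library labelled KPG1_PPARaDN replicate 1 were not above the regular diet tumors. *Slc2a1* was at 35.3 to 57.7 CPM in KP and 30.2 to 63.95 CPM in KPG1, with means of 44.9 and 44.7 CPM, and a count over the whole gene does not show whether the floxed part was read. On the doxycycline diet it was at 152.5, 115 and 108 CPM in KP_PPARaDN, all above KP (log2 fold change 1.48 ± 0.36, edgeR adjusted p = 0.289), and at 23.7, 53.2 and 54.6 CPM in KPG1_PPARaDN, all below KP_PPARaDN (log2 difference of the diet effects -1.51 ± 0.50 by the interaction term, edgeR adjusted p = 0.351). Of the marker lists, the 6 alveolar type 2 genes summed to 21200 to 67200 CPM, the 5 epithelial genes to 2440 to 5610 CPM and the 6 leukocyte genes to 6.22 to 60.0 CPM. No marker gene was at 0 in all tumors, and *Ptprc*, which encodes CD45, was at 1.88 to 31.5 CPM. In bulk RNA, fewer cells of a type and less RNA per cell cannot be told apart.

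*Npc2*, which binds cholesterol in the lysosome and hands it on for export, was by far the highest of the 31 genes, with a median of 1880 TPM over the 12 tumors and a range of 1160 to 2960 TPM. It stood at percentile 98.8 of all genes tested. *Soat1*, the acyltransferase that stores cholesterol as esters, followed with a median of 141 TPM, and then *Hmgcs1*, the enzyme that makes HMG-CoA, with 104 TPM. The ranges of *Soat1* (61.9 to 251 TPM) and *Hmgcs1* (52.1 to 189 TPM) overlapped over most of their length. *Abcg1*, an LXR-controlled exporter, was the lowest with a median of 3.04 TPM (range 1.53 to 9.19 TPM), at percentile 23.3.

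**Figure D1:**
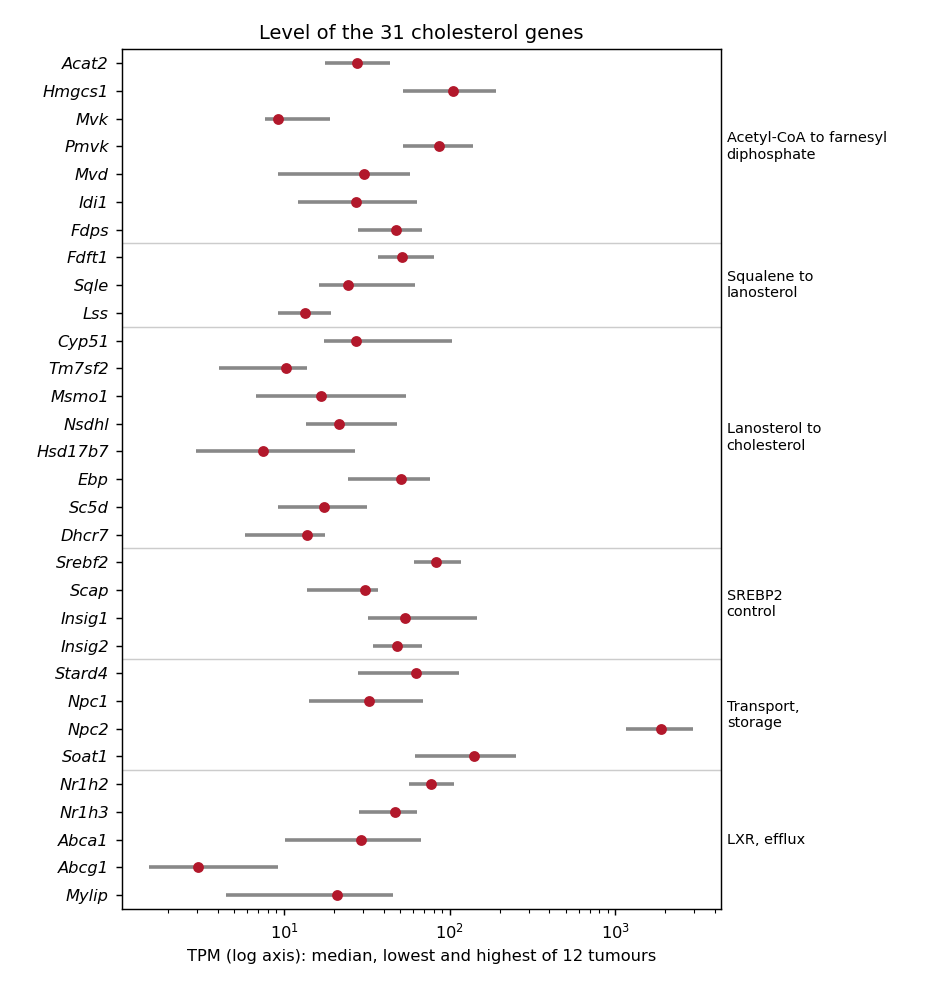
Levels of the 31 genes per length, in TPM on a log axis, grouped by role. Red points are medians and grey lines run from the lowest to the highest of the 12 tumors. *Npc2* lies farthest right, from 1160 to 2960 TPM, and *Abcg1* lies lowest.

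Among the synthesis enzymes the level did not follow the order of the reactions. In the arm from acetyl-CoA to farnesyl diphosphate, *Hmgcs1* and the phosphomevalonate kinase gene *Pmvk* (median 86.0 TPM) were high, and the mevalonate kinase gene *Mvk*, which acts between them, was low (9.18 TPM). *Fdps*, which makes farnesyl diphosphate, had a median of 47.5 TPM, and *Fdft1*, which joins farnesyl units to squalene, 51.4 TPM. Squalene epoxidase (*Sqle*) had 24.3 TPM and lanosterol synthase (*Lss*) 13.3 TPM. In the last arm, *Ebp*, the sterol isomerase, was highest with 50.7 TPM and *Hsd17b7*, a ketoreductase, lowest with 7.45 TPM. The members also differed in how much they varied between tumors of one group: the within-group SD of log2 CPM was 0.235 for *Lss* and *Nr1h2*, and 0.932 for *Mylip*, the LXR-induced ligase that degrades lipoprotein receptors.

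Many of the synthesis enzymes were high in the same tumor. KP_PPARaDN replicate 1 had the highest level of the 12 tumors for 9 of the 18 enzymes and was among the top 3 tumors for 15. It was also highest for *Insig1*, a classical target of SREBP2, and had the lowest level of the 12 tumors for 4 of the 5 LXR and efflux genes. Its summed synthesis enzymes came to 1038 CPM, and those of the other 11 tumors to 449 to 770 CPM. KP replicate 2 was at the other end, with the lowest level for 6 of the 18 enzymes and a sum of 449 CPM. In KP_PPARaDN replicate 1 the alveolar type 2 markers summed to 21200 CPM, the lowest of the 12 tumors, the epithelial markers to 5610 CPM, the highest, and the leukocyte markers to 11.8 CPM. Of the type 2 genes, *Sftpc* (5540 CPM) and *Sftpa1* (942 CPM) were the lowest of the 12 tumors there, and the others were not. Of the epithelial genes, *Nkx2-1* went the other way, at 208 CPM the lowest of the 12 tumors. *Ppara* in this tumor, at 2.71 CPM, was also the lowest of the 12. The part of these differences in the levels of the cholesterol genes was not tested.

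**Figure D2:**
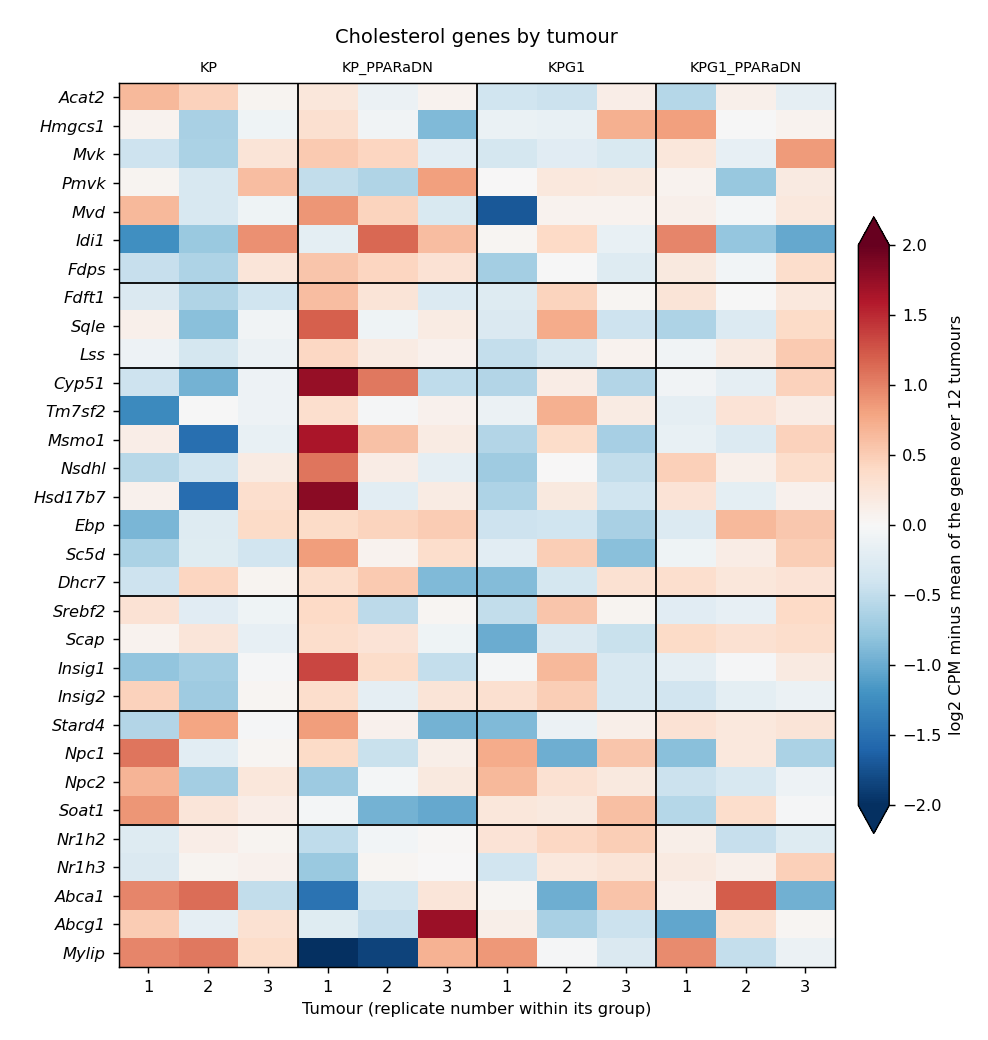
Level of each gene in each tumor as log2 CPM minus the mean of that gene over the 12 tumors, with groups separated by vertical lines and roles by horizontal lines. Colors end at 2 log2 units in either direction. The column of KP_PPARaDN replicate 1 is red for most synthesis enzymes and blue for *Abca1* and *Mylip*, while KP_PPARaDN replicate 3 does not share this pattern.

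The comparison of KP_PPARaDN with KP addresses the doxycycline diet and PPARαΔ13 in mice not labelled Glut1 Fl/Fl. *Ppara* in KP_PPARaDN replicate 1 was below every KP tumor. The mean level was higher in KP_PPARaDN for 16 of the 18 synthesis enzymes, among them *Cyp51*, *Msmo1*, *Sc5d*, *Fdft1* and *Fdps*, and *Soat1* was at 0.480 times its level in KP. None of the 31 genes passed an edgeR adjusted p of 0.05, a threshold that 0.00605% of all genes passed, or a DESeq2 adjusted p of 0.05, which 2.31% of all genes passed. At an unadjusted p under 0.05 there were 7 of 31 genes, against 11.4% of all genes. Of these, 6 were higher (5.32% of all genes) and 1 was lower (6.03%). The median log2 fold change was 0.28 over the 31 genes and -0.0082 over all genes, and 21 of the 31 were above 0, as were 49.2% of all genes.

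The enzymes that turn lanosterol into cholesterol had the highest median of the roles, with a log2 fold change of 0.77 and all 8 of 8 above 0. *Cyp51*, the lanosterol demethylase that opens this arm, was at 28.4, 19.7 and 35.3 CPM in KP replicates 1, 2 and 3, and at 126.5, 78.5 and 26.8 CPM in KP_PPARaDN. The first 2 of the KP_PPARaDN tumors were above every tumor of the other groups, and the third lay inside the KP range, so the groups overlapped. The log2 fold change was 1.48 ± 0.47 (SE, n = 3 against 3 tumors), with an edgeR adjusted p of 0.327 and an unadjusted p of 0.0089. *Cyp51* shares genomic sequence with *Akap9* on the opposite strand, which had a mean count of 5794 against 1320 for *Cyp51*, and the strand setting used for counting was not given in the sources used here.

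*Msmo1*, the sterol C4-methyl oxidase of the next steps, was at 32.8, 10.6 and 27.0 CPM in KP and at 93.4, 44.9 and 33.7 CPM in KP_PPARaDN. All KP_PPARaDN tumors were above all KP tumors, the lowest of them by less than 1 CPM. The log2 fold change was 1.29 ± 0.49 (edgeR adjusted p = 0.372). *Sc5d*, the sterol desaturase near the end of the pathway, was at 15.4, 20.2 and 18.4 CPM in KP and at 42.8, 25.2 and 30.4 CPM in KP_PPARaDN. These groups did not overlap, with a log2 fold change of 0.87 ± 0.33 (edgeR adjusted p = 0.375). *Hsd17b7* and *Nsdhl*, which act with *Msmo1* in removing the C4 methyl groups, owed their higher means largely to replicate 1: *Hsd17b7* was at 38.2 CPM there and at 9.46 and 12.2 CPM in the other KP_PPARaDN tumors, against 3.82 to 13.8 CPM in KP. *Nsdhl* was at 38.3 CPM in replicate 1, at 20.3 and 16.2 CPM in the others and at 12.5 to 20.5 CPM in KP. *Tm7sf2*, a sterol reductase that overlaps *Vps51* on the same strand, and *Dhcr7*, the last reductase, had overlapping groups, with log2 fold changes of 0.50 ± 0.34 and 0.05 ± 0.38.

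*Ebp* was at 16.3, 25.6 and 40.1 CPM in KP and at 40.07, 41.9 and 43.7 CPM in KP_PPARaDN. The groups did not overlap, but the highest KP tumor (40.06 CPM) and the lowest KP_PPARaDN tumor were level, and the log2 fold change was 0.62 ± 0.32 (edgeR adjusted p = 0.494). *Lss* was at 39.1, 33.02 and 38.7 CPM in KP and at 56.1, 46.9 and 44.8 CPM in KP_PPARaDN, again without overlap, with a log2 fold change of 0.42 ± 0.22 (edgeR adjusted p = 0.496). *Fdft1* was at 50.4, 40.8 and 46.8 CPM in KP and at 94.97, 73.5 and 50.8 CPM in KP_PPARaDN. Its groups were separated by the narrow step from 50.4 to 50.8 CPM, and the log2 fold change was 0.67 ± 0.25 (edgeR adjusted p = 0.367). *Fdft1* overlaps the abundant *Ctsb* on the opposite strand, with a mean count of 16680 for *Ctsb* against 1899. *Fdps* was at 39.5, 35.4 and 63.8 CPM in KP and at 79.7, 72.8 and 65.8 CPM in KP_PPARaDN. The KP_PPARaDN tumors were all above the KP tumors, and the log2 fold change was 0.65 ± 0.25 (edgeR adjusted p = 0.379).

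Among the genes that control SREBP2, *Insig1* was at 28.8, 30.95 and 49.0 CPM in KP and at 125.8, 64.4 and 35.8 CPM in KP_PPARaDN. Replicates 1 and 2 were above all KP tumors and replicate 3 was inside their range, with a log2 fold change of 1.05 ± 0.41 (edgeR adjusted p = 0.385). *Srebf2*, which encodes SREBP2, was at 152.5 to 217 CPM in KP and 124.6 to 235 CPM in KP_PPARaDN, and *Scap* at 52.3 to 69.2 and 55.3 to 74.6 CPM. Both pairs of groups overlapped. So did those of *Insig2*, which retains Scap as *Insig1* does, at 30.6 to 68.7 and 44.1 to 63.9 CPM, and of the mevalonate arm genes *Idi1* (12.3 to 53.9 and 25.02 to 63.04 CPM), *Mvd* (12.95 to 25.3 and 13.1 to 29.8 CPM) and *Pmvk* (33.5 to 64.04 and 27.4 to 73.5 CPM).

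*Soat1* was the 1 gene of the 31 whose KP_PPARaDN tumors were all below the KP tumors. It was at 710, 453 and 423 CPM in KP replicates 1, 2 and 3 and at 375, 199 and 188 CPM in KP_PPARaDN, with a log2 fold change of -1.06 ± 0.33 (edgeR adjusted p = 0.327, unadjusted p = 0.0085). KP replicate 1 was the highest of all 12 tumors for *Soat1*, *Npc1* (225 CPM) and *Npc2* (4648 CPM), the last 2 being the lysosomal pair that releases cholesterol, and its leukocyte markers were the highest too (60.0 CPM); the part of leukocytes was not tested. Without KP replicate 1 the log2 fold change of *Soat1* was -0.79 ± 0.34, that of *Npc1* went from -0.35 ± 0.47 to 0.15 ± 0.47 and that of *Npc2* from -0.32 ± 0.36 to 0.02 ± 0.36. *Stard4*, a carrier of sterol between membranes, was level, with means of 106.0 CPM in KP and 105.6 CPM in KP_PPARaDN. Of the LXR and efflux genes, *Mylip* was at 35.5, 37.8 and 23.4 CPM in KP and at 4.04, 5.04 and 29.4 CPM in KP_PPARaDN. The first 2 of the latter were far below every other tumor, where the lowest was 12.97 CPM, while the third was not, and the log2 fold change was -1.33 ± 0.69 (edgeR adjusted p = 0.496). *Abca1*, the exporter that loads apolipoproteins, was at 161, 177 and 58.1 CPM in KP and at 29.3, 62.9 and 96.1 CPM in KP_PPARaDN, with overlap and a log2 fold change of -1.07 ± 0.62.

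Over the 31 genes, the groups did not overlap for 6 that were higher (6.55% of all genes) and 1 that was lower (6.7%). Without KP_PPARaDN replicate 1, the genes at an unadjusted p under 0.05 went from 7 to 1, which was *Soat1*, at a log2 fold change of -1.45 ± 0.33 (edgeR adjusted p = 0.488). The median log2 fold change of the 31 genes was then 0.103. The synthesis enzymes had 14 of 18 above 0 and a median of 0.33, compared with 0.64 for all tumors, and *Cyp51* was at 0.92 ± 0.44. *Msmo1* was then at 0.74 ± 0.47, *Sc5d* at 0.63 ± 0.35, *Fdft1* at 0.43 ± 0.25, *Fdps* at 0.58 ± 0.29 and *Insig1* at 0.47 ± 0.36. *Nsdhl* was at 0.22 ± 0.31 and *Hsd17b7* at 0.16 ± 0.48, while *Ebp* was at 0.65 ± 0.37 and *Lss* at 0.31 ± 0.24. *Mylip* was at -0.905 ± 0.68 and *Abca1* at -0.73 ± 0.66. The count was 4 without KP replicate 1, 3 without KP replicate 2 and 11 without KP replicate 3. With sex as a covariate it was 4. For these refits and those below, the share of all genes under this threshold was not counted. A change particular to the 31 genes therefore cannot be told from a change over all genes. The fibroblast markers summed to 112 to 241 CPM in KP and 266 to 529 CPM in KP_PPARaDN, and the red cell markers to 319 to 765 and 850 to 1320 CPM. Neither pair of sums overlapped. By gene, the groups did overlap for *Pdgfra*, *Dcn*, *Hba-a1* and *Hbb-bt*. For *Hbb-bt*, KP_PPARaDN replicates 1 and 2 (157 and 90.9 CPM) were below every KP tumor. The part of these cells in these results was not tested.

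**Figure D3:**
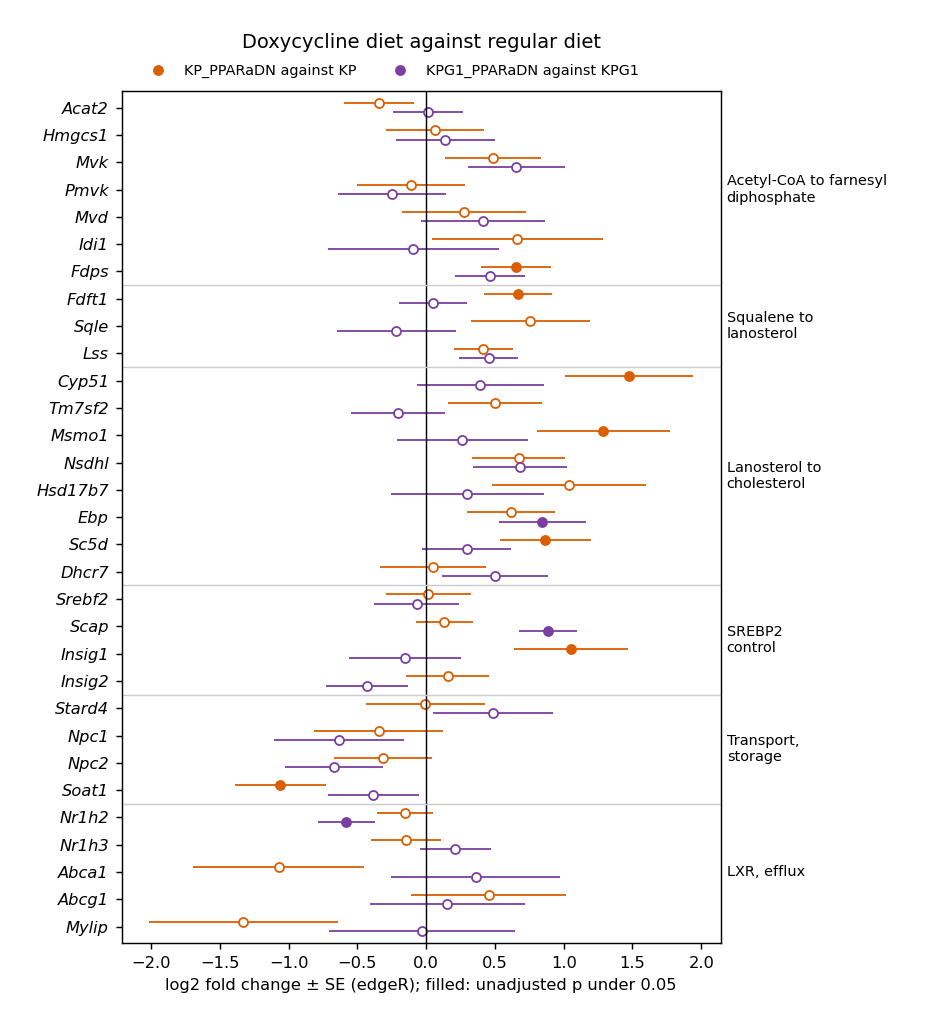
log2 fold change of each gene with its SE in KP_PPARaDN against KP (orange) and in KPG1_PPARaDN against KPG1 (purple), by edgeR. Filled points have an unadjusted p under 0.05, and no point passed after adjustment; *Cyp51* and *Msmo1* lie farthest right in KP, *Scap* and *Ebp* in KPG1.

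The comparison of KPG1_PPARaDN with KPG1 addresses the same diet and vector in mice with floxed Glut1. *Ppara* was at 8.90, 19.2 and 17.7 CPM in KPG1_PPARaDN and at 7.24, 10.5 and 15.3 CPM in KPG1, with overlap. Its log2 fold change was 0.48 ± 0.96 (edgeR adjusted p = 0.880), and 3.13 ± 1.03 in KP_PPARaDN against KP (edgeR adjusted p = 0.3285). Whether PPARαΔ13 was made to the same level in both genotypes was not tested. *Scap*, the escort of SREBP2, had a mean 1.85 times higher in KPG1_PPARaDN, *Ebp* 1.80 times, and *Nr1h2*, the gene of LXRβ, was at 0.669 times its KPG1 level. The synthesis enzymes were higher for 14 of 18, with a median log2 fold change of 0.30. None of the 31 genes passed after adjustment by edgeR (0.00605% of all genes did), and 3 had an unadjusted p under 0.05, against 10.8% of all genes. Of these, 2 were higher (6.25% of all genes) and 1 was lower (4.5%). In all, 19 of 31 were above 0, as were 52.2% of all genes. DESeq2 called *Scap* alone of the 31, with a log2 fold change of 0.88 and a DESeq2 adjusted p of 0.0197, where it called 1.25% of all genes.

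*Scap* was at 29.6, 48.0 and 42.8 CPM in KPG1 and at 76.1, 72.4 and 74.5 CPM in KPG1_PPARaDN. The KPG1_PPARaDN tumors were close together and the highest level of all 12 tumors was among them, while the 3 lowest of the 12 were the KPG1 tumors. The log2 fold change was 0.89 ± 0.21 (edgeR adjusted p = 0.420, unadjusted p = 0.00135). It was above 0 without each tumor in turn, and lowest at 0.707. *Ebp* was at 23.0, 23.2 and 19.6 CPM in KPG1 and at 25.5, 48.2 and 44.5 CPM in KPG1_PPARaDN. The groups did not overlap, though replicate 1 was just above KPG1, with a log2 fold change of 0.85 ± 0.32 (edgeR adjusted p = 0.420). *Nr1h2* was at 91.7, 101 and 106.6 CPM in KPG1 and at 82.1, 55.0 and 63.1 CPM in KPG1_PPARaDN, all of which were lower, with a log2 fold change of -0.58 ± 0.21 (edgeR adjusted p = 0.420).

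Other genes with separate groups did not reach an unadjusted p of 0.05. *Npc2* was at 4532, 3588 and 3312 CPM in KPG1 and at 2156, 2327 and 2702 CPM in KPG1_PPARaDN, with a log2 fold change of -0.67 ± 0.36 (edgeR adjusted p = 0.527). *Nsdhl* was at 11.2, 18.4 and 13.1 CPM and at 25.4, 19.7 and 23.4 CPM, with a log2 fold change of 0.68 ± 0.34. *Mvk* was at 6.40, 6.99 and 6.61 CPM and at 9.48, 7.30 and 14.7 CPM, with a log2 fold change of 0.66 ± 0.35. The tumors of each of these genes were apart, narrowly for *Mvk*. *Stard4* was at 51.0, 86.8 and 103 CPM in KPG1 and at 116, 109 and 112 CPM in KPG1_PPARaDN. *Lss* was at 30.1, 33.6 and 44.3 CPM and at 39.9, 47.8 and 60.5 CPM, overlapping in 1 tumor of each group. In all, the groups were apart for 5 genes that were higher (11.2% of all genes) and 2 that were lower (9.41%), which is near the share among all genes for both. The alveolar type 2 markers, which encode surfactant proteins and the like, summed to 40300 to 67200 CPM in KPG1 and 23700 to 35400 CPM in KPG1_PPARaDN without overlap. By gene, *Sftpb* and *Napsa* did overlap, and the others were lower in every KPG1_PPARaDN tumor. The part of these markers in these results was not tested. Without KPG1_PPARaDN replicate 3 the count at an unadjusted p under 0.05 was 1, and without KPG1 replicate 2 it was 5.

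**Figure D4:**
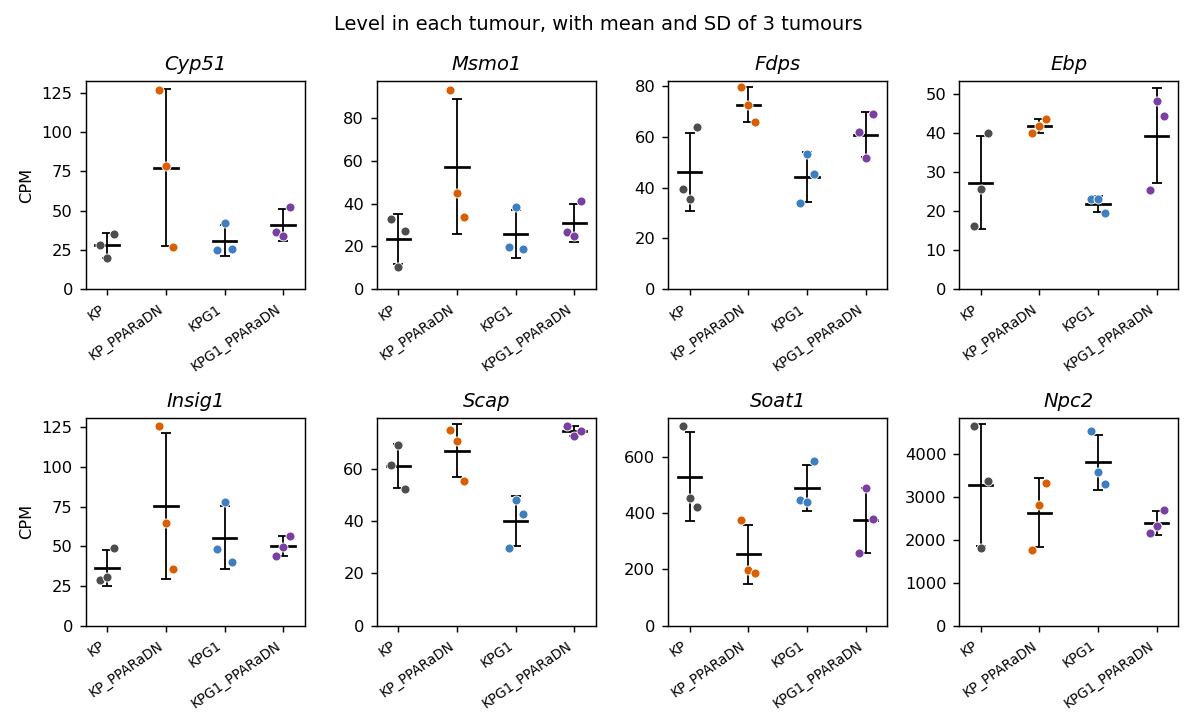
CPM of 8 genes in each tumor, with the mean and SD of the 3 tumors of a group as a line and bars. *Scap* is lowest in the KPG1 tumors and tight at 72.4 to 76.1 CPM in KPG1_PPARaDN, while *Cyp51*, *Msmo1* and *Insig1* spread widely within KP_PPARaDN.

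Over both genotypes, 6 doxycycline tumors were compared with 6 on the regular diet; this uses the same tumors as the comparisons above and is no separate evidence. At an unadjusted p under 0.05 there were 11 of the 31 genes, against 10.1% of all genes, and 0 passed after adjustment by edgeR (0.0182% of all genes did). Of the 11 genes, 9 were higher (5.14% of all genes) and 2 were lower (4.91%). The higher genes were *Scap* and 8 synthesis enzymes, namely *Ebp*, *Fdps*, *Lss*, *Cyp51*, *Nsdhl*, *Sc5d*, *Mvk* and *Msmo1*, and the lower genes were *Soat1* and *Nr1h2*. *Scap* had a log2 fold change of 0.51 ± 0.15 (edgeR adjusted p = 0.310), *Ebp* of 0.73 ± 0.22 (edgeR adjusted p = 0.328) and *Soat1* of -0.72 ± 0.23 (edgeR adjusted p = 0.356). *Fdps* followed with 0.56 ± 0.18, *Lss* with 0.44 ± 0.15 and *Cyp51* with 0.93 ± 0.33. In KPG1, *Fdps* was at 33.9, 53.5 and 45.3 CPM, *Soat1* at 447, 438.5 and 583 CPM and *Cyp51* at 25.2, 42.2 and 25.4 CPM. In KPG1_PPARaDN *Fdps* was at 61.8, 51.9 and 69.3 CPM, of which 1 tumor was below the highest of KPG1. For 0 of the 31 genes were the 6 tumors of a diet all above (0.266% of all genes) or all below (0.224%) the other 6. Along the pathway, 5 of 7 genes up to farnesyl diphosphate, 3 of 3 from squalene to lanosterol and 8 of 8 after lanosterol had a log2 fold change above 0. Of all 31 genes, 21 were above 0, against 51.1% of all genes. The median log2 fold change was 0.40 over the 18 enzymes and 0.0079 over all genes.

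Without KP_PPARaDN replicate 1 the 11 genes became 5, which were *Soat1*, *Ebp*, *Scap*, *Fdps* and *Lss*. *Soat1* was then at -0.92 ± 0.22, *Ebp* at 0.75 ± 0.25, *Scap* at 0.47 ± 0.16, *Fdps* at 0.52 ± 0.20 and *Lss* at 0.38 ± 0.16. The synthesis enzymes were above 0 for 15 of 18, with a median of 0.31. Without KPG1_PPARaDN replicate 3 the count was 7. The mean log2 CPM of the 18 enzymes was 4.58 ± 0.30 (SD, n = 3) in KP, 5.12 ± 0.34 in KP_PPARaDN, 4.63 ± 0.28 in KPG1 and 4.90 ± 0.15 in KPG1_PPARaDN. The ranges of the tumors overlapped between the diets in both genotypes. The 5 LXR and efflux genes were at 5.20 ± 0.20, 4.56 ± 0.80, 4.94 ± 0.21 and 4.91 ± 0.16 in the same order.

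**Figure D5:**
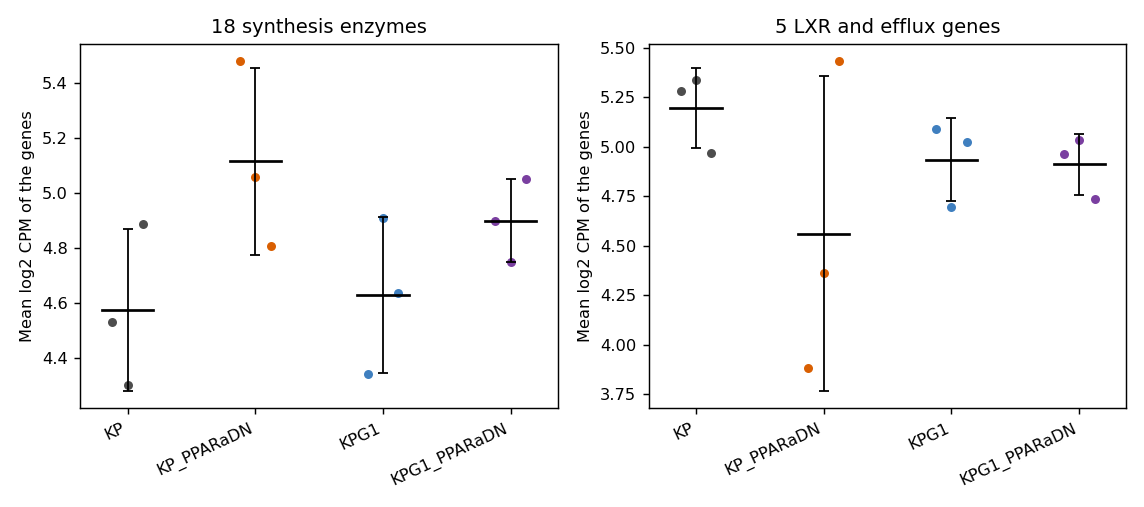
Mean log2 CPM of the 18 synthesis enzymes (left) and of the 5 LXR and efflux genes (right) in each tumor, with the mean and SD of each group; the axes do not start at 0. KP_PPARaDN replicate 1 is the highest tumor on the left, at 5.48, and the lowest on the right, at 3.88.

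The comparisons of KPG1 with KP address Glut1 Fl/Fl mice against controls that may be heterozygous for the floxed allele. On the regular diet the level of *Slc2a1* did not separate the groups, as given above. On that diet, *Scap* was lower in KPG1, at 0.658 times its KP level, and so was *Acat2*, the thiolase that makes acetoacetyl-CoA, at 0.655 times. *Scap* was at 61.4, 69.2 and 52.3 CPM in KP, all above the 29.6, 48.0 and 42.8 CPM of KPG1, with a log2 fold change of -0.60 ± 0.21 (edgeR adjusted p = 0.785). *Acat2* was at 32.0, 28.3 and 21.3 CPM in KP and at 15.6, 15.2 and 22.6 CPM in KPG1, with overlap and a log2 fold change of -0.61 ± 0.26 (edgeR adjusted p = 0.787). These were the 2 genes with an unadjusted p under 0.05, against 6.23% of all genes (2 lower against 3.81%, and 0 higher against 2.42%), and none passed after adjustment by edgeR (0.0363% of all genes did). The macrophage markers summed to 46.3 to 61.2 CPM in KP and 29.3 to 38.2 CPM in KPG1, without overlap. Of these genes, only *Mrc1* was apart by itself (9.65, 21.6 and 13.7 CPM in KP, and 4.56, 4.65 and 7.07 CPM in KPG1). The others overlapped, and for *Csf1r*, *Adgre1* and *C1qa* KP replicate 2 was below every KPG1 tumor. The part of macrophages was not tested. Sex and genotype cannot be told apart on the regular diet, and the count was 0 when tumors that shared a mouse were added up.

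*Fdft1* and *Nr1h2* were the genes with all KPG1 tumors above KP (2 genes, against 4.82% of all genes), and *Scap* was the 1 gene with all of them below (5.13%). *Fdft1* was at 51.8, 83.9 and 63.7 CPM in KPG1 and at 40.8 to 50.4 CPM in KP (log2 fold change 0.53 ± 0.25, edgeR adjusted p = 0.787). *Nr1h2* was at 63.5, 83.1 and 78.9 CPM in KP and at 91.7 to 106.6 CPM in KPG1, with a log2 fold change of 0.41 ± 0.21. *Tm7sf2* was at 5.17, 12.4 and 11.7 CPM in KP and at 11.6, 20.6 and 14.1 CPM in KPG1, with overlap and a log2 fold change of 0.66 ± 0.34. *Insig1* was at 48.4, 78.0 and 40.1 CPM in KPG1 against 28.8 to 49.0 CPM in KP, also with overlap. The median log2 fold change of the 31 genes was -0.036, and that of all genes was -0.029, and 14 of the 31 were above 0, as were 46.9% of all genes.

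On the doxycycline diet, 0 of the 31 genes had an unadjusted p under 0.05 in KPG1_PPARaDN against KP_PPARaDN by edgeR, against 9.69% of all genes (5.25% higher and 4.44% lower), and by DESeq2 it was also 0. Of the 31 genes, 11 were above 0, as were 50.5% of all genes. None passed after adjustment by edgeR (0.0303% of all genes did). The lowest was *Cyp51* at an unadjusted p of 0.0694, with a log2 fold change of -0.93 ± 0.46, followed by *Msmo1* with -0.89 ± 0.48. *Cyp51* was at 36.2, 33.5 and 52.2 CPM in KPG1_PPARaDN, between the tumors of KP_PPARaDN given above. *Msmo1* was at 27.0, 24.9 and 41.3 CPM. *Sqle* was at 26.9, 34.4 and 54.3 CPM in KPG1_PPARaDN and at 95.5, 39.2 and 46.5 CPM in KP_PPARaDN, where replicate 1 again stood alone. *Nr1h3*, the gene of LXRα, was the 1 gene with all KPG1_PPARaDN tumors (37.4, 35.4 and 46.1 CPM) above those of KP_PPARaDN (19.8, 33.8 and 33.3 CPM), against 10.3% of all genes (0 genes were all below, against 7.25%), with a log2 fold change of 0.45 ± 0.26. *Soat1* was at 258, 489 and 378 CPM in KPG1_PPARaDN, overlapping the 188 to 375 CPM of KP_PPARaDN, and *Abcg1* at 3.10, 7.81 and 6.50 CPM, overlapping the 5.38, 4.62 and 20.8 CPM of KP_PPARaDN. Without KP_PPARaDN replicate 1, *Cyp51* was at -0.37 ± 0.44 and *Msmo1* at -0.34 ± 0.47. *Soat1* then had the lowest unadjusted p, at 0.95 ± 0.32 (edgeR adjusted p = 0.621), the count under 0.05 was 1, and 15 of the 31 genes were above 0. The fibroblast markers summed to 266 to 529 CPM in KP_PPARaDN and 127 to 183 CPM in KPG1_PPARaDN, without overlap. By gene, *Pdgfra* and *Dcn* did overlap. The part of fibroblasts was not tested.

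Over both diets, *Acat2* was the 1 gene with an unadjusted p under 0.05 in KPG1 and KPG1_PPARaDN against KP and KP_PPARaDN, against 4.53% of all genes. It was lower (2.37% of all genes), and 0 genes were higher (2.15%). The tumors of the genotypes were apart for 0 genes (0.0968% of all genes higher and 0.0908% lower), and 13 of the 31 were above 0, as were 47.8% of all genes. None passed after adjustment by edgeR (0.0484% of all genes did). *Acat2* was at 13.8, 22.03 and 18.2 CPM in KPG1_PPARaDN and at 23.9, 18.9 and 21.6 CPM in KP_PPARaDN, and the log2 fold change over both diets was -0.43 ± 0.18 (edgeR adjusted p = 0.976). *Hmgcs1* was at 144, 87.3 and 130 CPM in KP, 172, 130 and 74.4 CPM in KP_PPARaDN, 125, 124.5 and 224 CPM in KPG1, and 241.5, 137 and 144 CPM in KPG1_PPARaDN. Its 2 highest tumors were in the KPG1 groups and its 2 lowest in the KP groups, with overlap and a log2 fold change of 0.43 ± 0.25 (edgeR adjusted p = 0.976). *Abcg1* (-0.67 ± 0.40), *Scap* (-0.23 ± 0.15), *Nr1h3* (0.27 ± 0.18) and *Nr1h2* (0.20 ± 0.15) had the next lowest unadjusted p-values. On the regular diet, *Abcg1* was at 9.04, 5.61 and 7.87 CPM in KP and at 6.92, 4.06 and 4.69 CPM in KPG1. *Nr1h3* was at 26.9, 34.1 and 35.01 CPM in KP and at 25.4, 37.97 and 39.2 CPM in KPG1, and for both genes these groups overlapped.

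Whether the doxycycline groups differed from their controls by another amount in KPG1 than in KP was tested with an interaction term. *Ppara* itself had a log2 difference of -2.66 ± 1.37 by this term (edgeR adjusted p = 0.465). The part of the *Ppara* level in the differences below was not tested, and the sexes were unevenly spread over the groups. *Scap* was the 1 gene with an unadjusted p under 0.05, against 11.8% of all genes (1 gene above 0 against 6.87%, and 0 below against 4.94%), 14 of the 31 genes were above 0, as were 51.7% of all genes, and 0 of the 31 genes and 0 of all genes (0%) passed after adjustment by edgeR. The log2 difference of *Scap* between the genotypes was 0.76 ± 0.30 (edgeR adjusted p = 0.389, unadjusted p = 0.0263), from a log2 fold change of 0.13 ± 0.21 in KP and 0.89 ± 0.21 in KPG1. For *Insig1* the difference was -1.21 ± 0.58, for *Cyp51* -1.08 ± 0.65, for *Msmo1* -1.02 ± 0.68, for *Fdft1* -0.62 ± 0.35 and for *Sqle* -0.98 ± 0.61. All were below 0, and none had an unadjusted p under 0.05. Without KP_PPARaDN replicate 1, *Insig1* was at -0.62 ± 0.48, *Cyp51* at -0.53 ± 0.60, *Msmo1* at -0.48 ± 0.64, *Fdft1* at -0.39 ± 0.34 and *Sqle* at -0.48 ± 0.57, and the median of the 18 enzymes went from -0.165 to 0.0098. *Sqle* was at 44.5, 23.1 and 39.4 CPM in KP and at 34.1, 69.2 and 31.1 CPM in KPG1, with overlap. In KPG1_PPARaDN *Insig1* was at 43.97, 49.2 and 56.6 CPM, and *Fdft1* at 74.1, 61.3 and 71.1 CPM. *Abca1* had the opposite sign, with 1.43 ± 0.87 (edgeR adjusted p = 0.522); it was at 84.0, 41.5 and 121 CPM in KPG1 and at 87.2, 188 and 41.6 CPM in KPG1_PPARaDN, which overlapped. Without KP_PPARaDN replicate 1, *Soat1* joined *Scap* under an unadjusted p of 0.05, at 1.06 ± 0.43 (edgeR adjusted p = 0.474), and without KP_PPARaDN replicate 3 the count was 4.

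Of 45 further genes of sterol metabolism, 44 were matched and all 44 were tested. In KP_PPARaDN against KP, 4 of them were higher and 1 was lower at an unadjusted p under 0.05, against 5.32% and 6.03% of all genes. *Lrp8*, a receptor of the lipoprotein receptor family, was at 1.27, 0.940 and 1.98 CPM in KP and at 5.24, 10.2 and 3.69 CPM in KP_PPARaDN, with a log2 fold change of 2.19 ± 0.61 (edgeR adjusted p = 0.305). All 3 KP_PPARaDN tumors were above KP, at a low level. *Lipa*, the lysosomal lipase that frees cholesterol from esters, was at 49.3, 46.4 and 117 CPM in KP and at 145, 121 and 234 CPM in KP_PPARaDN. *Acly*, which makes cytosolic acetyl-CoA, was lower, at 391 to 517 CPM against 577 to 809 CPM in KP (log2 fold change -0.59 ± 0.23).

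In KPG1_PPARaDN against KPG1, 2 of the 44 genes were higher and 1 was lower, against 6.25% and 4.5% of all genes. *Mbtps2*, the protease that makes the second cut in SREBP2, was at 15.6, 16.8 and 14.2 CPM in KPG1 and at 24.6, 26.9 and 27.5 CPM in KPG1_PPARaDN. *Mbtps2* was higher in every KPG1_PPARaDN tumor, with a log2 fold change of 0.76 ± 0.26 (edgeR adjusted p = 0.420). Of the 5 further genes of SREBP processing, it was the 1 above 0, and 4 were below. Of the 4 members that control SREBP2, *Scap* alone was above 0, and 3 were below. *Lrp8* was at 2.08, 1.96 and 1.09 CPM and at 7.40, 1.54 and 4.43 CPM, with overlap and a log2 fold change of 1.38 ± 0.59 (edgeR adjusted p = 0.447). *Cyb5r3*, which feeds electrons to sterol oxidation, was at 605, 904.5 and 718 CPM in KPG1 and at 413, 293 and 455 CPM in KPG1_PPARaDN. In KPG1 against KP, 1 of 44 was higher and 0 lower on the regular diet, against 2.42% and 3.81% of all genes. On the doxycycline diet 1 was higher and 2 were lower, against 5.25% and 4.44%. The gene on the regular diet was *Vldlr*, a lipoprotein receptor, with means of 136.5 and 56.4 CPM in KPG1 and KP (log2 fold change 1.28 ± 0.44, edgeR adjusted p = 0.785). On the doxycycline diet *Smpdl3a*, an LXR target, was higher (0.57 ± 0.21), and *Aacs*, which makes acetoacetyl-CoA in the cytosol, was lower (-0.93 ± 0.34) on the log2 scale.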

How the data were processed

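RNA of 12 lung tumors was sequenced from a TruSeq stranded mRNA kit as 85-nt single-end reads. Counts per gene were made by the authors with cutadapt, HISAT2 and featureCounts 1.4.4 on mm10, and were deposited as whole numbers per tumor and in a combined table that holds the same values. The strand setting and annotation of the counting are not given in the sources used here. A deposited log2 table equals log2 of the count plus 0.5 minus a constant per tumor, and was used only for that check.

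Genes were filtered with filterByExpr and scaled by TMM, and all 12 tumors were fitted at once with the quasi-likelihood test of edgeR 4.0.16 (R 4.3.3), adjusted over the 16527 genes kept. SEs were taken from the fold change and its F value. DESeq2 1.42.0 and limma 3.58.1 (voom), other scalings and fits, and fits without each tumor were alternatives. The scripts were tested on simulated data.

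The members and the other lists were chosen with earlier results of these data known. All members could be named. Values for each tumor were to be given for the 6 lowest unadjusted p per comparison, for groups that did not overlap and for the highest and lowest level of a role, for some of which only the range is printed; of the other pathway genes, at most 4 per comparison were named, among those with an unadjusted p under 0.05. Some genes of the pathway are not reported here. Overlapping genes and the exon lengths used for TPM were looked up in GENCODE M21.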

Additional observations from a re-analysis of the deposited data

How the results depend on the processing

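No member passed an edgeR adjusted p of 0.05 in any comparison, whichever tumor was left out. Of the summary values under all alternatives, 311 stayed within the limits set and 49 moved. With DESeq2, 1 member (*Scap*) passed after adjustment in KPG1_PPARaDN against KPG1, where its adjusted p over the alternatives was 0.0197 to 0.999. The counts below are of members with an unadjusted p under 0.05. The share of all genes under the same alternative was not counted, so these counts do not show a change particular to the members. KP_PPARaDN against KP gave 4 with sex as a covariate, and KPG1_PPARaDN against KPG1 gave 5 with the compared groups alone. KPG1 against KP on the regular diet gave 1 with the compared groups alone and 0 with tumors of a mouse summed. KPG1_PPARaDN against KP_PPARaDN gave 1 without the filter on low counts and 1 with sex as a covariate. Genotype over both diets gave 2 with sex and 0 with tumors of a mouse summed. The interaction gave 2 with DESeq2, 2 without the filter and 0 with tumors of a mouse summed. The cause of these changes was not tested.

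The replicate numbers did not pair the tumors: 1 of 12 tumors correlated best with its own number. With the replicate number as a block, the count was 1 for genotype on the regular diet, 1 on the doxycycline diet and 0 over both diets.

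With each tumor left out in turn, the count was 1 to 11 and the median log2 fold change 0.103 to 0.374 for KP_PPARaDN against KP. They were 1 to 5 and 0.0344 to 0.229 for KPG1_PPARaDN against KPG1, and 5 to 16 and 0.155 to 0.348 for the diet over both genotypes. For genotype they were 1 to 2 and -0.11 to 0.217 on the regular diet, 0 to 4 and -0.234 to -0.00446 on the doxycycline diet, and 0 to 2 and -0.153 to 0.0044 over both. For the interaction they were 0 to 4 and -0.296 to 0.141. The log2 fold change of *Abcg1* between genotypes on the doxycycline diet ran from -1.17 to 0.215, and turned from -0.82 to 0.215 (edgeR adjusted p = 0.897) without KP_PPARaDN replicate 3. With 3 tumors per group, from at most 3 mice, a member that did not pass the test is not shown to be unchanged.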

Other observations

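Tumors that shared a mouse could be compared with tumors of the same group from different mice. Over the 31 genes, the median absolute log2 difference between 2 tumors was 0.381 to 0.695 for the 3 pairs of the same mouse and 0.276 to 0.922 for the 9 pairs of different mice, so the ranges overlapped. Within pairs of the same mouse, 5 to 7 of the 31 genes differed by more than 2-fold. *Idi1*, which makes dimethylallyl diphosphate, differed by 3.98-fold between replicates 1 and 3 of KPG1_PPARaDN. *Mvd*, the decarboxylase just before it, differed by 3.41-fold between replicates 1 and 2 of KPG1. The farthest pair was replicates 1 and 3 of KP_PPARaDN, with a median of 0.922 and 14 genes over 2-fold, *Mylip* most of all at 7.27-fold.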
